A study of Homo sapiens with 6 samples.

Results

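The plasminogen activator system was described as 9 genes, chosen by symbol from a table of 60623 gene rows. They are the activators PLAU and PLAT, the receptor PLAUR, the serpins SERPINE2, SERPINB2 and SERPINB6, tissue factor F3, and the Kunitz-type inhibitors TFPI and TFPI2. All 9 had a row in the table. Bulk RNA sequencing was compared between 3 libraries labelled shSTN1 (a short hairpin RNA against STN1) and 3 labelled as its control hairpin (shControl, genotype WT). All 6 were labelled PANC-1, an established human cell line from a pancreatic ductal carcinoma, and were grown in DMEM with fetal bovine serum. The genotype field of shSTN1 replicates 2 and 3 reads STN2 and STN3 knockdown, so the groups follow the titles. The titles call the replicates biological. The number of clones or infections behind each group, and whether replicates were separate cultures, is not given in the sources used here. The p-values thus measure the spread between libraries, which may be partly technical.

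Urokinase (PLAU) and tissue-type plasminogen activator (PLAT) are serine proteases that cleave plasminogen into plasmin, a protease that dissolves fibrin and degrades matrix proteins. Urokinase acts largely at the cell surface, bound to its receptor (PLAUR), whereas tissue-type activator is best known as the fibrinolytic enzyme released by endothelium. Serpins inhibit these proteases by trapping them in a covalent complex. Tissue factor (F3) starts the extrinsic pathway of coagulation, and TFPI blocks the complex of tissue factor and factor VIIa. Urokinase and its receptor are widely studied in the invasion of carcinoma cells, pancreatic carcinoma among them.

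The libraries labelled shSTN1 held 18813591 to 23336942 counted reads and the control libraries 17357223 to 20660453. STN1, the targeted gene, had 303, 306 and 275 reads in the libraries labelled shSTN1, against 387, 346 and 278 in control (log2 fold change -0.15, edgeR adjusted p = 0.253). The label was thus not borne out by STN1 mRNA, and higher or lower always refers to the libraries by their labels. Of the 17451 genes tested, 74.1% differed at an edgeR adjusted p under 0.05, with 35.6% higher and 38.5% lower in the libraries labelled shSTN1. Cell line markers moved with the labels. A list of 11 pancreatic carcinoma line markers, keratins among them, summed to 6513 to 6637 CPM (reads scaled to the size of each library) in the libraries labelled shSTN1 and to 1074 to 1144 CPM in control, and 8 of its 8 tested genes were higher, 1 of which reached the low-count filter in the libraries labelled shSTN1 alone. A list of 9 embryonic kidney line markers summed to 89.7 to 96.4 CPM in the libraries labelled shSTN1 and to 583 to 666 CPM in control. Of these kidney markers, 7 were lower and 1 higher, and 4 had 0 reads in the libraries labelled shSTN1. In control alone, 5 reached the low-count filter, which itself favours a lower call for those 5. The part of these markers in the differences below was not tested. In bulk RNA, fewer cells of a type and less RNA per cell cannot be told apart.

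Sequence before the RefSeq start of transcription is shown for the genes that hold a match to the AP-1 motif, because genes of AP-1 subunits also differed between the groups. RefSeq (GRCh38.p14) gave 13 start sites for 8 of the 9 genes, and the 250 bases before each were searched on both strands. The set of start sites used here held none for PLAT, so sequence before PLAT was not searched. The motif TGANTCA, bound by FOS and JUN family dimers, was found before PLAUR, SERPINB2, F3 and TFPI2, with 2 separate matches before F3. Of 27305 genes with such windows, 8.06% held the motif in at least 1 of them. The stretches of 27 bases below run 5′ to 3′ on the strand of the gene, with the motif in capitals.
PLAUR, chr19:43670339-43670365, minus strand: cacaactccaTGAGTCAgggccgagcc
SERPINB2, chr18:63887593-63887619, plus strand: agtaaaatgtTGAATCActcaaaggac
F3, chr1:94541966-94541992, minus strand: gtggcgcggtTGAATCActggggtgag
F3, chr1:94541953-94541979, minus strand: atcactggggTGAGTCAtcccttgcag
TFPI2, chr7:93890824-93890850, minus strand: tccccgtgcaTGAATCAgccacccctc
The first motif base lay 186 bases before the start of PLAUR, 102 before SERPINB2, 223 and 210 before F3, and 87 before TFPI2. These 4 genes did not move one way: SERPINB2 and TFPI2 had more reads in the libraries labelled shSTN1, whereas PLAUR and F3 were lower.

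Longer sequence is given for the SERPINB2 and F3 windows, which contrast in base composition, without the bases that GENCODE 29 places in an untranslated region. AP-1 matches and, for SERPINB2, the TATA box motif TATAAA are in capitals.
SERPINB2, chr18:63887455-63887699, plus strand: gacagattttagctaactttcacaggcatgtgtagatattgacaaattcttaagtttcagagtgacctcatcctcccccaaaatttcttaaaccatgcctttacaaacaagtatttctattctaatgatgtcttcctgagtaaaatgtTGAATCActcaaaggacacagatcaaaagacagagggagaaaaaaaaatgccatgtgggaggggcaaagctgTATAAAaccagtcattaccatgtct
F3, chr1:94541801-94542009, minus strand: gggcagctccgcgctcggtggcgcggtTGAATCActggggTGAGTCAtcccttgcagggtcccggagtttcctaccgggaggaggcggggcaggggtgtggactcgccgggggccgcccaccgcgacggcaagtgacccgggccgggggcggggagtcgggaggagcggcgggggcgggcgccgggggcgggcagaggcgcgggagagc
The full SERPINB2 window holds 0 CpG dinucleotides and that of F3 holds 34, where the median over 35116 windows is 11. TATAAA starts 30 bases before the annotated start of SERPINB2. The F3 window also holds it, read on the other strand and 28 to 23 bases before the start, in the untranslated part that is not shown. Of all windows, 10.7% hold that motif. Neither window of PLAU held the AP-1 or TATA box motif, the ETS motif CCGGAAGT or the NF-kB motif, and nothing follows from this about regulation beyond these 250 bases. The ETS motif, held by 3.42% of all windows, and the NF-kB motif, held by 1.73%, were found in no window of the other members either. No motif matches overlapped each other.

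PLAU was the member with the highest level in the libraries labelled shSTN1 (ENSG00000122861.16, GRCh38 chromosome 10, 73909177 to 73917497, plus strand). It had 10179, 11182 and 9182 reads in the libraries labelled shSTN1, against 781, 760 and 655 in control. These correspond to 497, 512 and 521 CPM in the libraries labelled shSTN1, against 37.6, 34.0 and 35.5 CPM in control. All 3 libraries labelled shSTN1 were far above all 3 control libraries. The log2 fold change was 3.84 (95% interval 3.69 to 3.98, edgeR adjusted p = 7.64e-30), a 14.3-fold higher level. Of all genes tested, 5.21% had a larger absolute log2 fold change. C10orf55, a gene on the opposite strand that overlaps PLAU, had 137 reads in the libraries labelled shSTN1 and 15 in control, and without a stated strand setting these reads cannot be told apart from those of PLAU.

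PLAT, the second activator, went the other way (ENSG00000104368.18, chromosome 8, 42175233 to 42207724, minus strand). It had 18, 18 and 7 reads in the libraries labelled shSTN1, against 1994, 1860 and 1571 in control. Its level was 0.879, 0.825 and 0.397 CPM in the libraries labelled shSTN1, against 96.0, 83.2 and 85.1 CPM in control. The libraries labelled shSTN1 held 43 reads of it in all and the control libraries 5425, with no overlap. The log2 fold change was -6.93 (95% interval -7.63 to -6.31, edgeR adjusted p = 6.98e-28), 122-fold lower in the libraries labelled shSTN1. PLAT reached the low-count filter through the control libraries alone, and entry in this way itself favours a lower call.

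PLAUR, the glycolipid-anchored urokinase receptor, did not follow its ligand (ENSG00000011422.12, chromosome 19, 43646095 to 43670547, minus strand). It had 148, 174 and 134 reads in the libraries labelled shSTN1, against 245, 248 and 234 in control. The level was 7.23, 7.97 and 7.60 CPM in the libraries labelled shSTN1, against 11.8, 11.1 and 12.7 CPM in control. The groups did not overlap, and the receptor was 1.56-fold lower in the libraries labelled shSTN1 (log2 fold change -0.64, 95% interval -0.91 to -0.36, edgeR adjusted p = 8.36e-05). This is a modest difference here, since 52.1% of all genes tested had a larger absolute one.

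**Figure D1:**
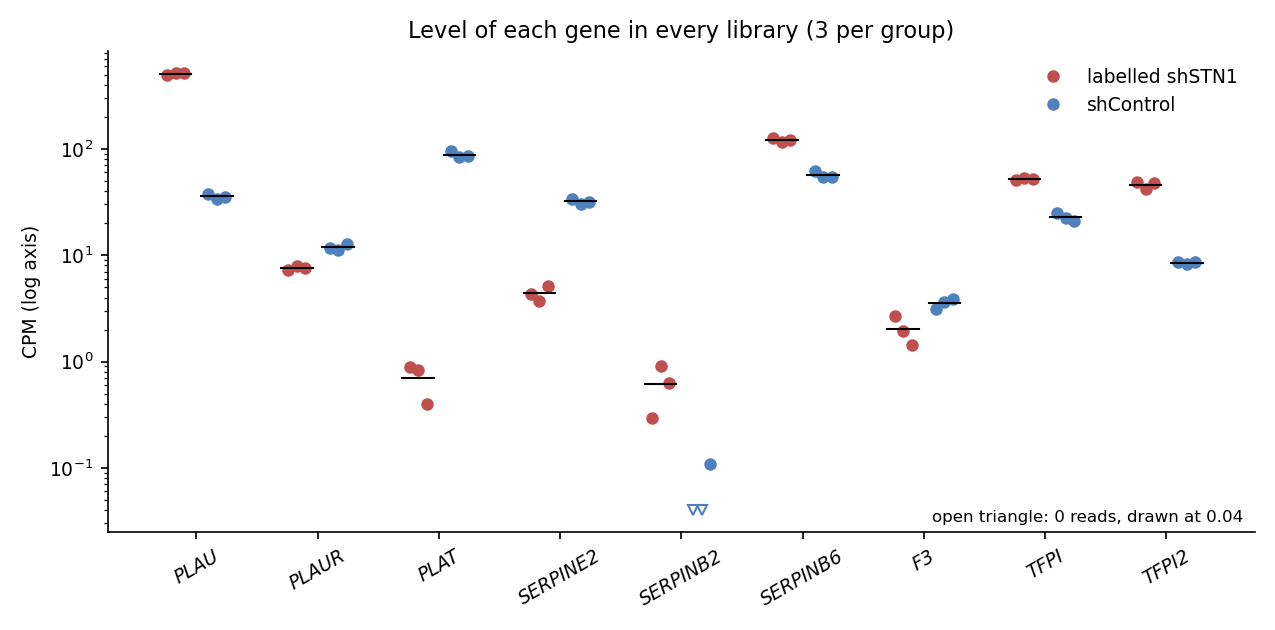
Level of each of the 9 genes in CPM (log axis) in every library. Points are single libraries and black lines are means of 3, with libraries labelled shSTN1 in red and control in blue. PLAU lies at 497 to 521 CPM in the libraries labelled shSTN1 and at 34.0 to 37.6 CPM in control, and PLAT shows the opposite order.

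Within each library the balance between these genes can be read without any scaling between libraries. PLAU had 68.8, 64.3 and 68.5 reads per PLAUR read in the libraries labelled shSTN1, against 3.19, 3.06 and 2.80 in control. The ratio was 22.3-fold higher in the libraries labelled shSTN1. PLAT had 0.00177, 0.00161 and 0.000762 reads per PLAU read in the libraries labelled shSTN1, against 2.55, 2.45 and 2.40 in control. That ratio was 1904-fold lower in the libraries labelled shSTN1, so the activator with more reads was PLAU there and PLAT in control. The size of this fold is imprecise, since it rests on 18, 18 and 7 PLAT reads in the libraries labelled shSTN1. Such ratios, here and below, combine the differences of their genes and add no separate evidence. For each of these ratios the exact two-sided permutation test gave p = 0.1, the smallest that 3 libraries against 3 allow.

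The inhibitors of the activators did not move together. SERPINE2, protease nexin-1, inhibits thrombin, urokinase and tissue-type activator (ENSG00000135919.13, chromosome 2, 223975112 to 224039319, minus strand). It had 88, 81 and 91 reads in the libraries labelled shSTN1, against 707, 681 and 583 in control. Its level was 4.30, 3.71 and 5.16 CPM in the libraries labelled shSTN1, against 34.0, 30.5 and 31.6 CPM in control. Every control library was above every library labelled shSTN1, and the gene was 7.34-fold lower in the libraries labelled shSTN1 (log2 fold change -2.88, 95% interval -3.19 to -2.58, edgeR adjusted p = 1.40e-19).

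SERPINB2, plasminogen activator inhibitor type 2, was nearly unread in control (ENSG00000197632.9, chromosome 18, 63871692 to 63903890, plus strand). It had 6, 20 and 11 reads in the libraries labelled shSTN1, against 0, 0 and 2 in control. These counts fell below the low-count filter, so the gene was not tested. The sums of 37 reads in the libraries labelled shSTN1 and 2 in control give a ratio of 19.0 (95% exact interval 4.90 to 163), which covers counting error only. Without control replicate 3 the control group has 0 reads, and the difference is at least 3.14 on the log2 scale against a floor of 3 reads over the group. SERPINB10, which overlaps the annotated span of SERPINB2 on the same strand, had 0 reads in every library.

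SERPINB6 is an intracellular serpin of the same clade that inhibits trypsin-like proteases and cathepsin G (ENSG00000124570.20, chromosome 6, 2948159 to 2972165, minus strand). It had 2616, 2547 and 2114 reads in the libraries labelled shSTN1, against 1292, 1225 and 1006 in control. Its level was 128, 117 and 120 CPM in the libraries labelled shSTN1, against 62.2, 54.8 and 54.5 CPM in control. The groups were separate and the gene was 2.12-fold higher in the libraries labelled shSTN1 (log2 fold change 1.09, 95% interval 0.94 to 1.24, edgeR adjusted p = 1.10e-14).

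F3 and the Kunitz-type inhibitors moved in opposite directions. F3, the membrane receptor for factor VIIa, was low in all libraries (ENSG00000117525.14, chromosome 1, 94529225 to 94541800, minus strand). It had 55, 42 and 25 reads in the libraries labelled shSTN1, against 65, 81 and 71 in control. The level was 2.69, 1.92 and 1.42 CPM in the libraries labelled shSTN1, against 3.13, 3.62 and 3.85 CPM in control. The gap between the highest library labelled shSTN1 and the lowest control library was small. The log2 fold change was -0.80 (95% interval -1.34 to -0.31, edgeR adjusted p = 0.00373), and without shSTN1 replicate 3 it was -0.61 (edgeR adjusted p = 0.0299).

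TFPI, tissue factor pathway inhibitor, was higher in the libraries labelled shSTN1 (ENSG00000003436.16, chromosome 2, 187464230 to 187565760, minus strand). It had 1035, 1160 and 910 reads in the libraries labelled shSTN1, against 513, 502 and 387 in control. Its level was 50.5, 53.1 and 51.6 CPM in the libraries labelled shSTN1, against 24.7, 22.5 and 21.0 CPM in control. All libraries labelled shSTN1 exceeded all control libraries, by 2.28-fold in the fit (log2 fold change 1.19, 95% interval 1.01 to 1.37, edgeR adjusted p = 1.71e-13). The antisense gene AC007319.1, which overlaps TFPI, had 177 reads in the libraries labelled shSTN1 and 59 in control, against sums of 3105 and 1402 reads for TFPI.

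TFPI2, a matrix-associated Kunitz inhibitor of plasmin and trypsin, differed more (ENSG00000105825.14, chromosome 7, 93885396 to 93890991, minus strand). It had 999, 922 and 837 reads in the libraries labelled shSTN1, against 180, 186 and 158 in control. Its level was 48.8, 42.2 and 47.5 CPM in the libraries labelled shSTN1, against 8.66, 8.32 and 8.56 CPM in control. The groups were far apart, with a 5.42-fold higher level in the libraries labelled shSTN1 (log2 fold change 2.44, 95% interval 2.19 to 2.67, edgeR adjusted p = 5.42e-20). GNGT1, on the opposite strand, overlaps TFPI2 and had 0 reads in the libraries labelled shSTN1 and 157 in control, the reverse order.

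TFPI had 18.8, 27.6 and 36.4 reads per F3 read in the libraries labelled shSTN1, against 7.89, 6.20 and 5.45 in control. The ratio of inhibitor to tissue factor was 4.14-fold higher in the libraries labelled shSTN1. TFPI2 had 0.965, 0.795 and 0.920 reads per TFPI read in the libraries labelled shSTN1, against 0.351, 0.371 and 0.408 in control. The exact two-sided permutation test again gave p = 0.1 for both ratios, the smallest this design allows.

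**Figure D2:**
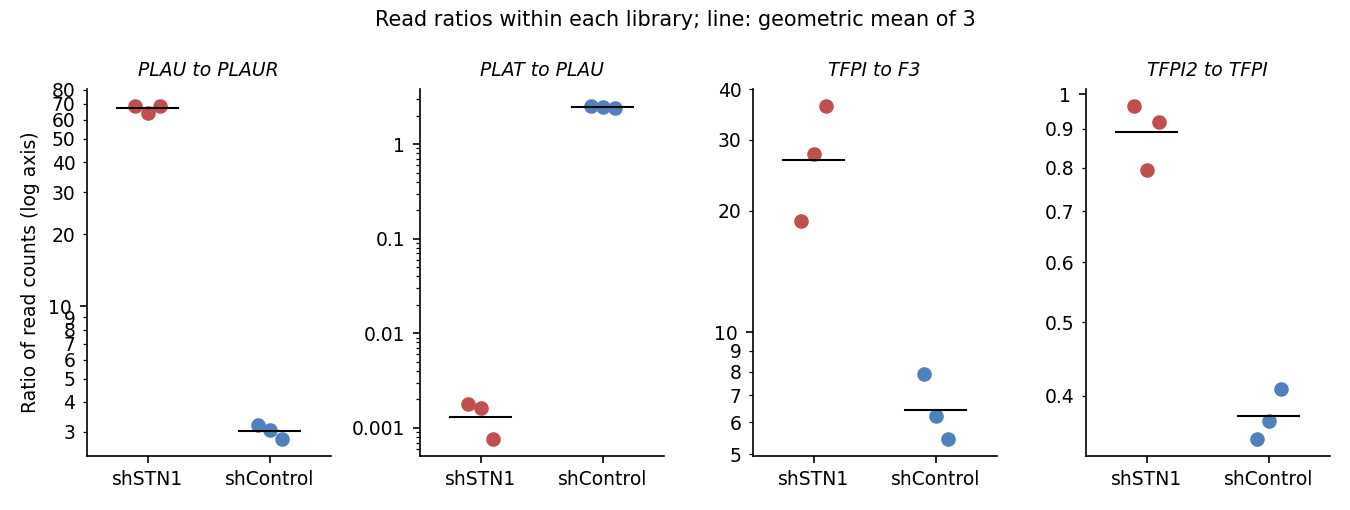
Read ratios within each library for 4 pairs of genes (log axes), libraries labelled shSTN1 in red and control in blue, with black lines at the geometric mean of 3. The PLAU to PLAUR ratio is 64.3 to 68.8 in the libraries labelled shSTN1 and 2.80 to 3.19 in control.

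Of the 9 genes, 8 passed the low-count filter and those 8 also passed the edgeR adjusted p of 0.05, with 4 higher (PLAU, SERPINB6, TFPI, TFPI2) and 4 lower (PLAUR, PLAT, SERPINE2, F3) in the libraries labelled shSTN1. Since 74.1% of all genes tested passed, this count does not set the system apart. A difference of 2-fold or more was seen for 6 of the 8 (4 higher, 2 lower), where 34.6% of all genes tested had one (15.7% higher, 19% lower). PLAT is among these 8 through the control libraries alone. The other 7 reached the filter in each group, and 4 were higher, 3 lower and 5 at least 2-fold apart. Their median log2 fold change was 1.09 and their median absolute value 1.19, beside 0.03 and 0.57 over the 14278 genes that reached the filter in each group, of which 74.4% were called and 26.5% called and at least 2-fold apart. With PLAT the median was 0.22 and the median absolute value 1.81, so with so few genes both medians rest on single members. The 2 groups did not overlap for any of the 9 genes, which holds for 75.6% of all genes tested (36.6% higher, 39% lower).

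**Figure D3:**
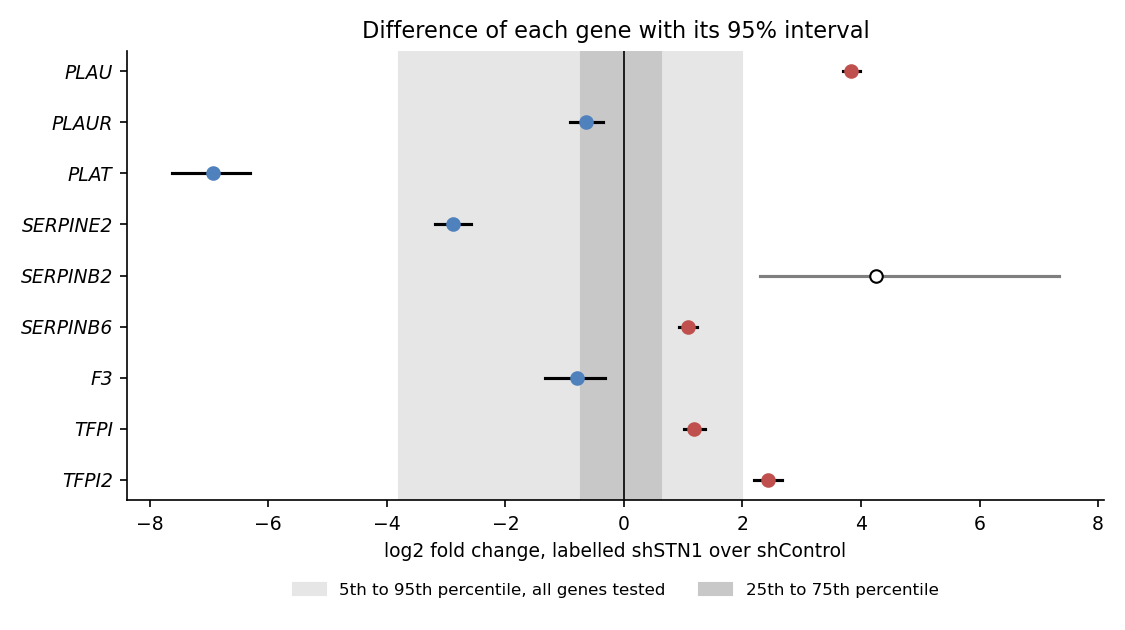
Log2 fold change of each gene in libraries labelled shSTN1 over control (filled points, red higher and blue lower) with limma-voom 95% intervals. The open point is the ratio of summed reads for SERPINB2 with its exact interval, and the grey bands give percentiles over all genes tested. PLAU (3.84), TFPI2 (2.44) and PLAT (-6.93) lie outside the 5th to 95th percentile range.

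Levels were set side by side between genes as RPKM (CPM divided by the kilobases of exon, taken over all annotated exons of a gene). That length is 13201 bases for SERPINB6 and 11714 for TFPI, against 2682 for TFPI2, and the order depends on it. In CPM, SERPINB6 (121) and TFPI (51.8) averaged above TFPI2 (46.2) in the libraries labelled shSTN1. In the libraries labelled shSTN1, PLAU stood first at 173 ± 4.10 RPKM (SD, n = 3), followed by TFPI2 at 17.2 ± 1.29 and SERPINB6 at 9.20 ± 0.431 RPKM. TFPI (4.42 ± 0.111 RPKM) and PLAUR (1.71 ± 0.0834 RPKM) came next. The neighbours F3 and SERPINE2, at 0.699 ± 0.222 and 0.494 ± 0.0822 RPKM, overlapped in these libraries, as did SERPINB2 (0.222 ± 0.113 RPKM) and PLAT (0.106 ± 0.0399 RPKM). In control, PLAT (13.3 ± 1.04 RPKM) and PLAU (12.1 ± 0.610 RPKM) headed the order and overlapped each other. SERPINB6 (4.33 ± 0.329 RPKM), SERPINE2 (3.60 ± 0.204 RPKM), TFPI2 (3.17 ± 0.0652 RPKM), PLAUR (2.66 ± 0.178 RPKM) and TFPI (1.94 ± 0.160 RPKM) followed without overlap in control. F3 (1.23 ± 0.128 RPKM) and SERPINB2 (0.0131 ± 0.0228 RPKM) closed it.

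The 9 genes summed to 204, 206 and 211 RPKM in the libraries labelled shSTN1, against 44.8, 40.5 and 41.8 RPKM in control. Shares of this sum depend on the same exon lengths. PLAU made up 82.6%, 84.3% and 83.7% of that sum in the libraries labelled shSTN1, against 28.4%, 28.5% and 28.8% in control. PLAT made up 0.0651%, 0.0605% and 0.0285% in the libraries labelled shSTN1, against 32.3%, 31.1% and 30.8% in control. TFPI2 kept a like share, at 8.92%, 7.64% and 8.40% in the libraries labelled shSTN1 and 7.20%, 7.67% and 7.64% in control, since the sum grew with it.

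**Figure D4:**
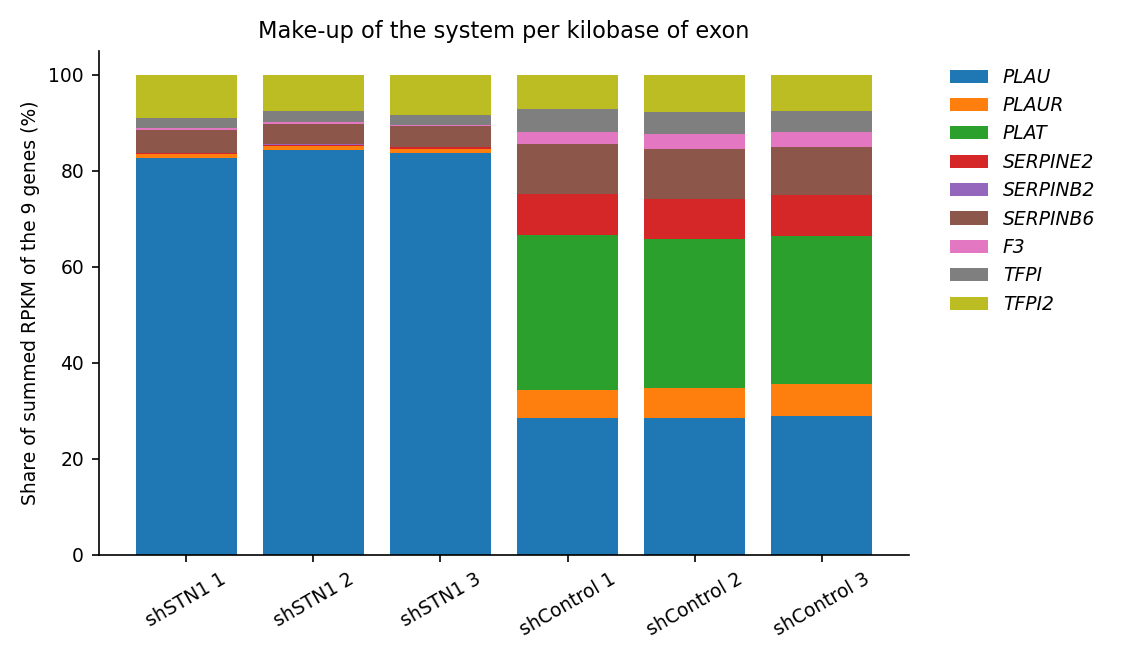
Share of each gene in the summed RPKM of the 9 genes, in percent, for the 3 libraries labelled shSTN1 (left) and the 3 control libraries (right). PLAU fills 82.6% to 84.3% of the libraries labelled shSTN1, whereas PLAT and PLAU take similar parts of control.

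The spread between replicates was wide where reads were few. The coefficient of variation of PLAU was 2.37% in the libraries labelled shSTN1 and 5.04% in control, and that of TFPI was 2.52% in the libraries labelled shSTN1 and 8.24% in control. PLAT varied by 37.7% in the libraries labelled shSTN1, where it had 43 reads in all, and by 7.80% in control. SERPINB2 varied by 51.0% in the libraries labelled shSTN1, on 37 reads.

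The 3 tested protein-coding genes whose log2 CPM over the 6 libraries lay nearest to those of PLAU were CES1 (Euclidean distance 0.53), MT2A (0.66) and ANPEP (1.22). CES1, a carboxylesterase, averaged 418 ± 4.75 CPM in the libraries labelled shSTN1 and 36.1 ± 3.59 CPM in control. With 2 groups, such a likeness mainly reflects the 2 group means.

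Genes beside the members on their chromosomes were read for the same difference. Over all genes tested, 35.6% were higher and 38.5% lower, with a median log2 fold change of -0.03. Around PLAT, 13 of 18 tested protein-coding genes starting within 1000 kb were lower and 2 higher in the libraries labelled shSTN1, with a median log2 fold change of -1.04. Its nearest tested neighbours AP3M2 (-0.82) and IKBKB (-1.22) were lower by far less than PLAT itself. Around F3, 7 of 11 such genes were lower and 2 higher (median -0.95), and F3 (-0.80) lay close to its neighbours ABCD3 (-1.04) and SLC44A3 (-1.08). Around PLAU, 16 of 23 were higher and 4 lower, with a median of 0.44, and CAMK2G beside it was at 0.55. The 16 include the overlapping C10orf55 (3.20), whose reads cannot be told apart from those of PLAU. GNG11, a G protein subunit gene next to TFPI2, had a log2 fold change of 2.34, close to the 2.44 of TFPI2. The 8 tested genes around TFPI2 were mixed, with 4 higher and 3 lower. Around SERPINE2, 4 of 5 were higher and 0 lower (median 0.55), whereas SERPINE2 was lower. PLAUR lay among 35 tested genes with 10 higher and 9 lower (median -0.02). Its neighbour CADM4 was lower (-1.30), and SMG9 on the other side was at 0.10 and did not pass (edgeR adjusted p = 0.307). For SERPINB6, 7 of 14 such genes were higher and 5 lower (median 0.27). For TFPI, 2 of 4 were higher and 0 lower (median 0.50). For SERPINB2, 3 of 5 were higher and 2 lower (median 0.65). Its nearest tested neighbours were HMSD (3.44, averaging only 0.263 CPM in control) and VPS4B (0.65).

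The lists that follow are to be read beside all genes tested, of which 74.1% were called, 35.6% higher and 38.5% lower. Genes that bind plasminogen at the cell surface were higher in 5 of 7 tested cases and lower in 0, with a median log2 fold change of 0.31. ANXA2 and S100A10 form a heterotetramer that binds plasminogen and tissue-type activator. ANXA2 averaged 1478 ± 60.7 CPM in the libraries labelled shSTN1 and 379 ± 27.7 CPM in control, and S100A10 averaged 546 ± 45.6 CPM in the libraries labelled shSTN1 and 255 ± 4.15 CPM in control. KRT8, which can bind plasminogen when exposed on carcinoma cells and is also 1 of the carcinoma line markers above, had a log2 fold change of 2.57. Plasminogen itself (PLG) had 11 reads in the libraries labelled shSTN1 and 1 read in control and was not tested.

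Integrins that associate with the urokinase receptor, clearance receptors and matrix ligands were higher in 9 of 14 tested cases and lower in 4 (median 0.79), and 1 of the higher genes, ITGB3, reached the filter in the libraries labelled shSTN1 alone. The integrin genes ITGA3 (log2 fold change 2.22), ITGB5 (1.76) and ITGA5 (1.38) were higher, and ITGA3 is also among the carcinoma line markers. The 4 lower genes were LRP1, VLDLR, SORL1 and LRPAP1. LRP1 and VLDLR are endocytic receptors that clear complexes of activator and serpin. LRP1 had a log2 fold change of -0.77 (edgeR adjusted p = 5.30e-11). VLDLR averaged 1.24 ± 0.589 CPM in the libraries labelled shSTN1 and 7.97 ± 1.41 CPM in control (edgeR adjusted p = 8.38e-12). SORL1 was at -0.96 and LRPAP1, a chaperone of these receptors, at -0.37. LRP8, a related receptor, was higher at 0.40, and MRC2, a collagen receptor that associates with PLAUR, at 0.68.

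Proteases and growth factors linked to the system were higher in 9 of 13 tested cases and lower in 1 (median 1.01). Of all genes tested, 35.6% were higher and 38.5% lower. The transmembrane protease gene TMPRSS2 averaged 63.9 ± 2.32 CPM in the libraries labelled shSTN1 and 4.57 ± 0.672 CPM in control. SPINT2, a Kunitz-type inhibitor of membrane proteases and hepatocyte growth factor activator, had a log2 fold change of 1.81, and the cathepsin gene CTSD 1.53. TGFB1 was the gene lower in this list (-0.29).

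Serpins of other clades were mixed, with 3 of 6 tested higher and 2 lower (median 0.22). Of the 4 that reached the filter in each group, 1 was higher and 2 lower, and their median was -0.29, of the opposite sign. SERPINF1, which encodes pigment epithelium-derived factor, a serpin without protease inhibitor activity, averaged 3.82 ± 0.608 CPM in the libraries labelled shSTN1 and 103 ± 12.8 CPM in control. SERPINA1 (4.03) and SERPINA3 (3.01) were tested through the libraries labelled shSTN1 alone, so the filter itself favoured a higher call for them. SERPINA1 averaged 1.96 ± 0.433 CPM in the libraries labelled shSTN1 and 0.112 ± 0.0655 CPM in control. The main plasma inhibitor of plasmin, SERPINF2, had 29 reads in the libraries labelled shSTN1 and 26 in control and was not tested. Of the other clade B serpins, 3 of 3 tested were higher (SERPINB1 0.68, SERPINB8 2.74, SERPINB9 0.49; median 0.68), SERPINB8 through the libraries labelled shSTN1 alone, and 7 of 11 had 0 reads in the libraries labelled shSTN1 and 8 in control.

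Coagulation factors, cofactors and thrombin receptors were higher in 8 of 13 tested cases and lower in 1 (median 1.40), and in 7 and 1 of the 11 that reached the filter in each group. F2RL1, the receptor cleaved by trypsin and by the complex of tissue factor and factor VIIa, averaged 456 ± 22.1 CPM in the libraries labelled shSTN1 and 71.2 ± 9.33 CPM in control. F2R, the thrombin receptor, averaged 128 ± 2.69 CPM in the libraries labelled shSTN1 and 36.7 ± 3.32 CPM in control. THBD, thrombomodulin, averaged 32.6 ± 3.38 CPM in the libraries labelled shSTN1 and 4.62 ± 0.749 CPM in control. F7, which encodes the ligand of tissue factor, had 16 reads in the libraries labelled shSTN1 and 7 in control.

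Other genes with a Ly6/uPAR domain, the fold of PLAUR, were higher in 4 of 9 tested cases and lower in 4 (median 0.02), and in 2 and 2 of the 5 that reached the filter in each group. CD59, a complement inhibitor, averaged 403 ± 15.9 CPM in the libraries labelled shSTN1 and 74.4 ± 0.209 CPM in control. LYNX1 was higher at 1.54 and LYPD1, tested through control alone, was at -5.54. Genes of AP-1 and ETS factors were higher in 11 of 15 tested cases and lower in 1 (median 1.2). FOSL1 (3.24), ETS2 (2.51) and ETS1 (2.66) were higher, whereas JUN averaged 491 ± 10.2 CPM in the libraries labelled shSTN1 and 490 ± 22.7 CPM in control (log2 fold change 0.00, edgeR adjusted p = 0.983). JUND was the gene lower in this list, at -0.17.

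**Figure D5:**
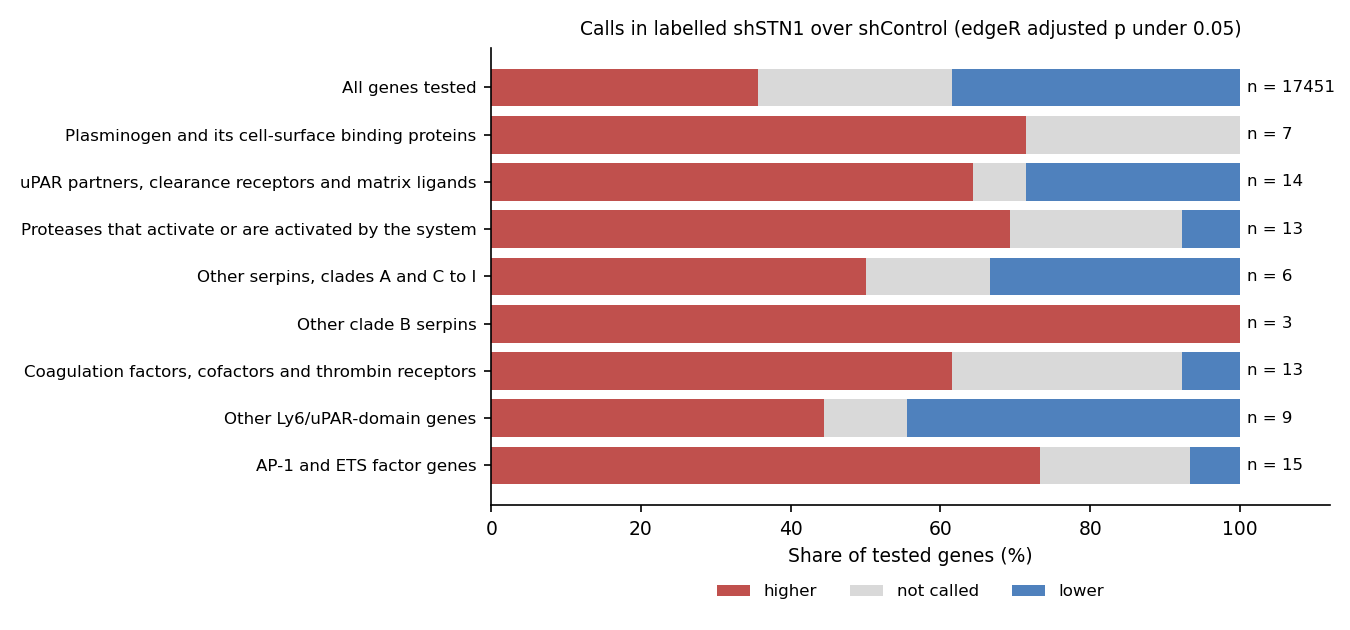
Share of the tested genes of each list, and of all 17451 genes tested, that were higher (red), not called (grey) or lower (blue) in libraries labelled shSTN1 at an edgeR adjusted p under 0.05. Plasminogen-binding proteins have 5 of 7 genes higher and Ly6/uPAR-domain genes 4 of 9, where 35.6% of all genes were higher.

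Markers of other cell types were also read, although all libraries were labelled as a cell line. Sums of endothelial and of fibroblast or stellate markers separated the groups, whereas sums of leukocyte markers overlapped. Of 8 endothelial markers, 3 were tested, with 1 higher and 1 lower, and they summed to 6.78 to 8.57 CPM in the libraries labelled shSTN1 and 4.48 to 5.19 CPM in control, with PECAM1 at 0 reads in every library. Of 8 leukocyte markers, 4 were tested, with 2 higher and 1 lower, and they summed to 4.10 to 5.27 CPM in the libraries labelled shSTN1 and 4.77 to 5.73 CPM in control, with CD3E at 0 reads throughout. All called leukocyte markers, and the lower endothelial one, reached the filter in 1 group alone. Of 8 fibroblast or stellate markers, 3 were tested and 2 were higher, with sums of 147 to 162 CPM in the libraries labelled shSTN1 and 65.2 to 78.6 CPM in control. The 2 higher genes were COL1A1, at 124 ± 6.91 CPM in the libraries labelled shSTN1 and 46.7 ± 3.16 CPM in control, and COL3A1, at 28.0 ± 1.37 and 22.8 ± 3.88 CPM in the libraries labelled shSTN1 and in control (edgeR adjusted p = 0.0159). COL1A2 had 2 reads in the libraries labelled shSTN1 and 1 read in control. The part of these markers in the differences of the 9 genes was not tested.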

How the data were processed

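For each of 6 libraries the authors deposited raw counts by gene. The submitters' processing notes name cutadapt, FastQC, build GRCh38, the aligner STAR (2.7.2b) and the counter featureCounts (2.0.1). Annotation release and strand setting: not given in the sources used here, so overlapping genes may share or lose reads. Of 60668 rows, 45 second copies of pseudoautosomal genes were left out, and 58516 of the remaining 60623 matched GENCODE 29 by identifier.

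Counts were fitted with edgeR 4.0.16 in R 4.3.3 (filterByExpr, TMM factors, robust quasi-likelihood test, no covariates, all 6 libraries), with Benjamini-Hochberg adjustment over 17451 genes and a threshold of 0.05. The filter asks for about 0.497 CPM in 3 libraries. CPM and RPKM use TMM-scaled library sizes and RPKM the exon union of GENCODE 29. Values after ± are SDs of 3 libraries. Intervals of log2 fold changes are limma-voom 95% intervals (limma 3.58.1), other intervals exact and for counting error only. Ratios within libraries were tested by exact permutation. The test was also run on simulated counts in which only a small part of the genes differed. In the data 74.1% of genes were called, so that run does not show how the test performs here.

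No pair of replicates agreed within sampling noise (their chi-square was 2.95 to 8.73 times its degrees of freedom), so each library counted once. Members, gene lists and markers were chosen with earlier results of these data known. Named genes are the members, STN1, up to 3 genes per list with the smallest adjusted p (up to 2 as values where none passed), the nearest tested protein-coding genes beside members and the 3 nearest PLAU in profile. Any further gene was picked with its values in view. The alternatives tried were RLE and upper-quartile factors, total counts, 2 other filters, protein-coding genes, DESeq2 1.42.0, limma-voom, glmTreat, an adjusted p under 0.01, the replicate number as a block and leaving out each library. For the ratios, the block and left-out libraries were tried. Reads per kilobase, also computed, cannot alter a fold between groups because exon lengths are fixed. Python 3.11.15 and matplotlib 3.10.9 made the figures.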

Additional observations from a re-analysis of the deposited data

How the results depend on the processing

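Directions of the 8 tested genes were kept under the 17 alternatives run, as were those of the 4 ratios with the block or with 1 library left out, and the 8 genes stayed past the edgeR, DESeq2 or limma-voom adjusted p, with a highest value of 0.0299 for F3. SERPINB2 had 10 alternatives, with values of 3.14 to 4.60 on the log2 scale. It was tested and passed without a low-count filter (edgeR adjusted p = 8.72e-05), which gave 9 genes in place of 8. It also entered without shSTN1 replicate 1 or any control replicate, again 9 genes, but only through libraries labelled shSTN1, where it is high, so those calls were largely set by the filter. STN1 passed only under total counts, at a log2 fold change of -0.35 (edgeR adjusted p = 0.00909), and ran from -0.22 to -0.06 with 1 library left out. Total counts moved the median of all genes to -0.22, and 38% of calls were higher there, beside 48.0% with TMM factors. Genes past the threshold numbered 10763 to 13901 over the alternatives, and 12586 to 12857 with 1 library left out. With the replicate block, 12742 genes and 8 members passed and PLAU was at 3.84. Same-numbered libraries showed correlations of -0.0123, 0.0171 and -0.0337 between their deviations from the group means, which gives no sign of pairing by number. Depth limits SERPINB2, F3 and, in the libraries labelled shSTN1, PLAT.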
